A study of Gallus gallus with 6 samples.

Results

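A set of 7 named transcription regulators of myeloid cells were followed in chicken macrophage-like cells exposed to IFN-beta, a cytokine of the type I interferons. They are the C/EBP genes CEBPA, CEBPB, CEBPD, CEBPG and CEBPZ, the PU.1 gene SPI1, and MAF. The rule listed them by symbol and set no threshold on a measured value, though earlier results of these data were known, and all 7 were found among the 14903 genes of the deposited tables and were among the 11091 genes tested. The cells are HD11, a single chicken line with the character of macrophages, which is known to be transformed by a retrovirus carrying v-myc. Its libraries share 1 labelled batch, are labelled wild type, and carry no other allele or agent. The 3 IFN-beta libraries came from cells kept for 3 h with recombinant chicken IFN-beta, dosed at 100 ng/mL, and the 3 mock libraries came from cells left without the cytokine, for which no time is recorded. The labels describe the replicates of each group as independent and biological.

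C/EBP proteins are basic leucine zipper (bZIP) factors that bind DNA as dimers. C/EBP alpha drives the choice of the granulocyte and monocyte fate, C/EBP beta and C/EBP delta serve activated macrophages and the acute phase response, and C/EBP gamma is a short form that lacks the usual activation domain and pairs with other bZIP factors. PU.1, an ETS-domain factor, opens and holds the enhancers of macrophage genes, often at sites shared with C/EBP. In chicken, C/EBP beta is also known as NF-M, a partner of the MYB protein in myeloid cells. MAF is a large MAF factor, also of the bZIP class, which controls genes of resident macrophages in mouse. CEBPZ bears the family's name but is no bZIP protein. It is related to a yeast factor of ribosome assembly.

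Library totals lay between 15665594 and 15885227 counts. Of 10 macrophage markers found, SPI1, MARCO, CTSS, CSF1R and TLR4 were abundant. CTSS alone had 1484 to 1543 TPM in IFN-beta and 1561 to 1646 TPM in mock. CD14 was low, with 5.53 to 6.63 TPM in IFN-beta and 7.38 to 9.5 TPM in mock. TIMD4 had 4.43 to 4.68 TPM in IFN-beta and 3.09 to 4.47 TPM in mock. LYZ had 6 reads in IFN-beta and 2 in mock. The summed level of the macrophage markers was 3216 to 3297 TPM in IFN-beta libraries and 3046 to 3086 TPM in mock libraries. The list holds SPI1 itself, and without it the sums were 2661 to 2752 TPM in IFN-beta and 2663 to 2713 TPM in mock. Of its 9 tested markers 4 rose, SPI1 among them, 3 fell and 2 did not pass. CSF1R was 1 of the 3 that fell, at an edgeR adjusted p (Benjamini-Hochberg) of 0.0468. With no filter on low counts, or without any single library except mock replicate 3, 2 markers fell. On log2(TPM + 1) 4 fell. Among all tested genes 24.3% rose and 22.4% fell. TPM, the share of transcripts after correction for gene length, is a level per length. It allows genes to be compared with each other only as far as the length used for each gene holds. The lists of T cell, B cell, erythroid, thrombocyte and fibroblast markers each summed to 1.15 to 6.37 TPM in IFN-beta and 1.18 to 8.01 TPM in mock, with 23 of 42 markers found. The 7 of these that were tested had edgeR adjusted p-values (Benjamini-Hochberg) of 0.174 to 0.895. On log2(TPM + 1) and log2(TPM + 0.1), BLNK of the B cell list and TAL1 of the erythroid list fell. BLNK also fell under library size alone, and 1 erythroid marker on log2(TPM + 1) without a filter. Without IFN-beta replicate 2, 1 thrombocyte marker fell. Of the 3 tested thrombocyte markers, ITGB3 reached 10 counts in every library of mock only. It had 5, 13 and 5 counts in IFN-beta and 13, 13 and 11 in mock. ITGB3 came through the filter on low counts by the group where it was higher, so the counts called do not describe the whole thrombocyte list.

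IFN-beta libraries held more CEBPB, CEBPD, SPI1, CEBPG and CEBPZ RNA and less MAF RNA than mock libraries, and CEBPA did not pass the test. Of the 7 genes, 5 rose, 1 fell and 1 did not pass at an edgeR adjusted p (Benjamini-Hochberg over all tested genes) under 0.05. Over all tested genes 24.3% rose and 22.4% fell, 46.7% in either direction. In numbers this was 2697 genes higher and 2480 lower in IFN-beta, and with scaling by library size only it was 1734 higher and 4008 lower. In counts scaled to the effective library size, the groups did not overlap for 6 of the 7 genes, against 53.9% of all tested genes. These are bulk cultures, so fewer cells using a gene and less RNA per cell cannot be told apart.

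The order of the levels per length differed between the groups. In IFN-beta libraries SPI1 stood highest, followed by CEBPB, CEBPA, CEBPD, CEBPZ, CEBPG and MAF, and the libraries of no neighbours in that order overlapped. In mock libraries the order was SPI1, CEBPA, CEBPB, CEBPZ, CEBPG, CEBPD and MAF, and only CEBPB (64.2 to 71.4 TPM) and CEBPZ (56.8 to 64.5 TPM) overlapped. SPI1 ranked at place 263 of 14903 genes by mean TPM in IFN-beta and at 379 in mock, CEBPB at 348 in IFN-beta and 2155 in mock, and CEBPD at 1931 in IFN-beta and 4585 in mock. MAF lay far below the others, at place 9087.5 in IFN-beta and 8714 in mock.

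**Figure D1:**
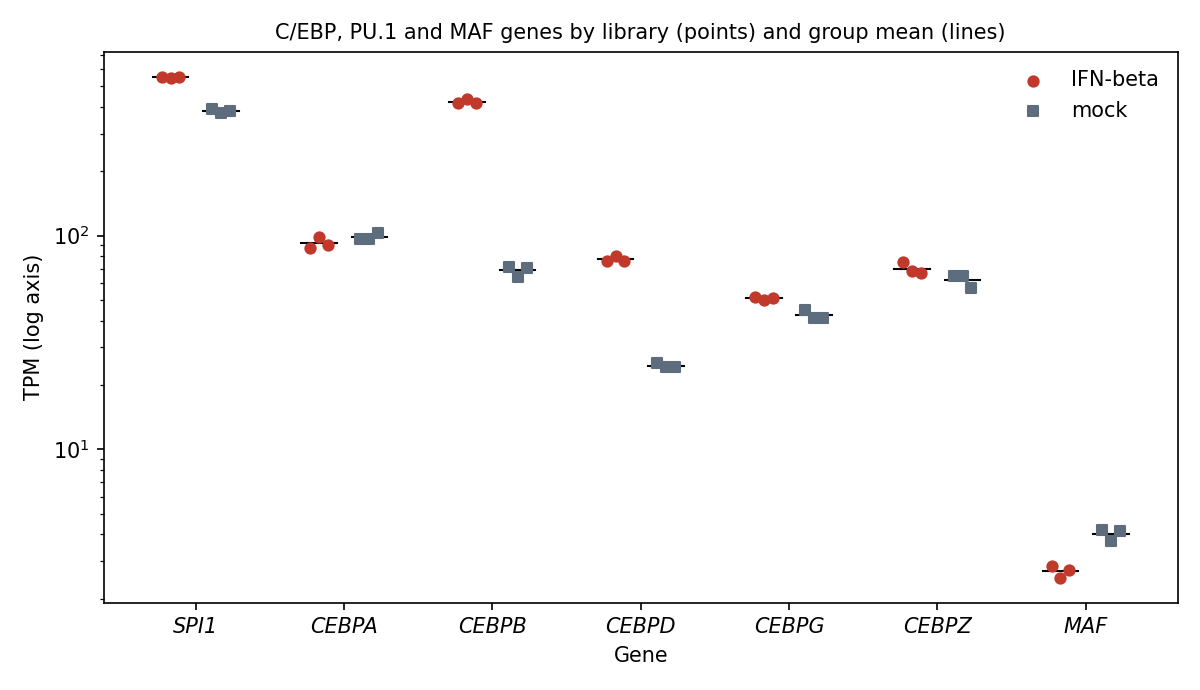
Level of each gene in TPM on a log axis, with 1 point per library (circles IFN-beta, squares mock, 3 each) and a line at each group mean. CEBPB stands between 415 and 435 TPM in IFN-beta and between 64.2 and 71.4 TPM in mock, SPI1 is the highest gene in both groups, and the CEBPA points of the groups overlap.

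CEBPB rose more than the other 6 genes. It had 416, 435 and 415 TPM in IFN-beta replicates 1, 2 and 3, against 71.4, 64.2 and 70.5 TPM in mock replicates 1, 2 and 3. Every IFN-beta library lay far above every mock library, and the spread within each group was small beside that gap. In CPM, the counts scaled to the effective library size, the level was 348 ± 12.6 in IFN-beta and 52.4 ± 3.51 in mock (SD, n = 3 each). The log2 fold change was 2.73 (approximate SE 0.05), which is 6.65-fold with an approximate 95% interval of 6.24 to 7.09, and the edgeR adjusted p (Benjamini-Hochberg) was 4.8e-20. On log2(TPM + 1) the log2 fold change was 2.60, below the interval's lower end (2.64 in log2). By fold change CEBPB held place 73 among the 11091 tested genes. Counting error alone would give an SD of 1.80 CPM in mock and 4.77 CPM in IFN-beta, so these libraries varied by more than sampling noise.

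CEBPD, the partner of C/EBP beta in the acute phase response, moved the same way from a lower level. Its TPM were 76.1, 79.98 and 76.3 in IFN-beta and 25.4, 24.2 and 24.2 in mock. The groups were far apart and each was tight. The log2 fold change was 1.77 (approximate SE 0.05), or 3.41-fold, with an edgeR adjusted p (Benjamini-Hochberg) of 7.3e-16, and the gene held place 155 by fold change. On log2(TPM + 1) the log2 fold change was 1.62, below the lower end of its approximate interval (1.66 in log2). Under library size alone it was 1.68, within the interval.

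CEBPA, the family member of granulocyte and monocyte commitment, did not pass. It had 87.9, 98.9 and 90.4 TPM in IFN-beta and 96.3, 96.4 and 102.5 TPM in mock, so that the highest IFN-beta library exceeded the lower mock libraries. The fitted log2 fold change was 0.02 (approximate SE 0.06, edgeR adjusted p 0.802, Benjamini-Hochberg), and its approximate 95% interval of 0.933-fold to 1.10-fold leaves room for a small change either way. The sign depended on the scaling and turned negative under library size alone (-0.07) and on log2(TPM + 1) (-0.09). CEBPA had few reads for its TPM, since its length implied by count over TPM was 0.331 times that of SPI1.

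CEBPG, which lies next to CEBPA on chromosome 11 of the reference assembly GRCg7b, rose by a smaller step. It had 51.5, 50.1 and 50.9 TPM in IFN-beta and 44.9, 41.1 and 41.3 TPM in mock. The groups did not overlap, and the gap between them was somewhat wider than the range within mock. The log2 fold change was 0.38 (approximate SE 0.05), or 1.30-fold, with an edgeR adjusted p (Benjamini-Hochberg) of 2.0e-06. The size depended on the scaling. On log2(TPM + 1) the log2 fold change was 0.256, below the lower end of its approximate interval (0.283 in log2). Under library size alone it was 0.284, close to that lower end.

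As these genes moved unequally, the make-up of the bZIP C/EBP pool differed between the groups. Summed over CEBPA, CEBPB, CEBPD and CEBPG, the pool held 632, 664 and 633 TPM in IFN-beta and 238, 226 and 238 TPM in mock, 2.75-fold more in IFN-beta by the means. CEBPB made up 65.7% ± 0.201 of the pool in IFN-beta and 29.3% ± 0.818 in mock (SD, n = 3 each). CEBPA made up 14.4% ± 0.498 in IFN-beta and 42.0% ± 1.39 in mock, so the most abundant family member by TPM was CEBPB with IFN-beta and CEBPA in mock. CEBPG held 7.91% ± 0.324 in IFN-beta and 18.1% ± 0.763 in mock, while CEBPD held 12.1% ± 0.00866 in IFN-beta and 10.5% ± 0.327 in mock. These shares rest on length: by scaled CPM the difference was -16.5 percentage points for CEBPA, in place of -27.7, and -19.6 for CEBPG, in place of -10.2. In mock CPM, CEBPA (47.5) lay below CEBPB (52.4) and CEBPG (66.2). By TPM no share overlapped between the groups, and each gave a two-sided exact permutation p of 0.1, the smallest that 3 against 3 allows.

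**Figure D2:**
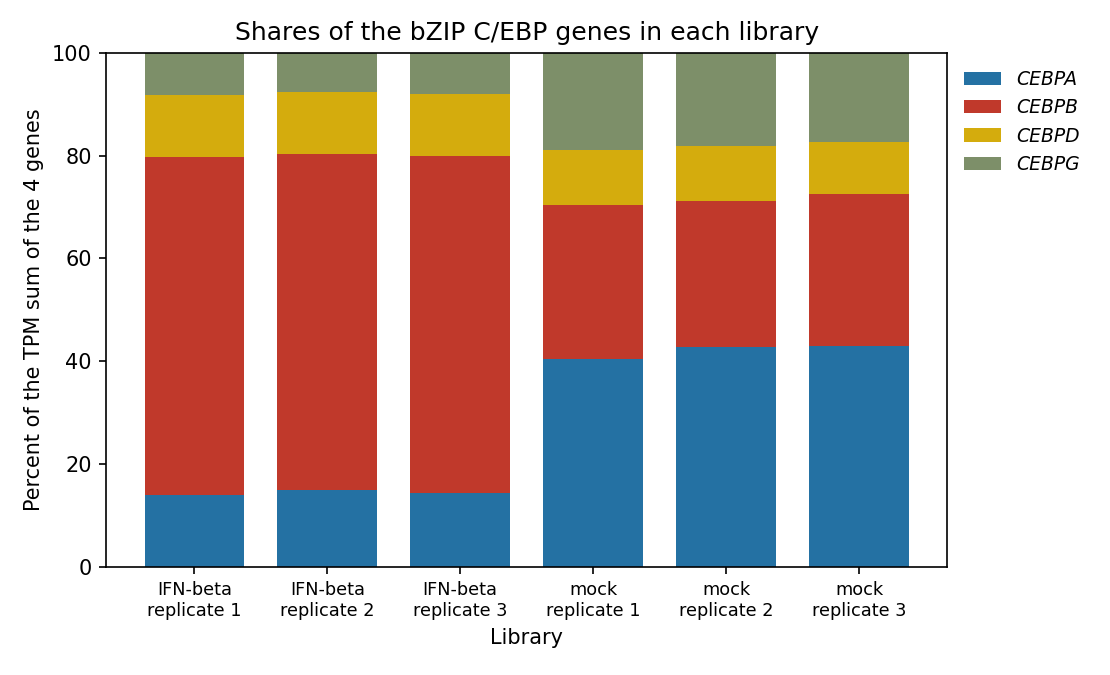
Percent of the TPM sum of CEBPA, CEBPB, CEBPD and CEBPG in each of the 6 libraries (vertical axis 0 to 100%), with the 3 IFN-beta libraries on the left and the 3 mock libraries on the right. CEBPB fills 65.5 to 65.9% of each IFN-beta library and 28.4 to 30.0% of each mock library.

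Ratios within a library do not depend on how libraries are scaled. The TPM ratio of CEBPB to CEBPA was 4.74, 4.40 and 4.59 in IFN-beta and 0.742, 0.666 and 0.687 in mock. By TPM, CEBPB therefore lay above CEBPA in all IFN-beta libraries and below it in all mock libraries. The order in mock rests on length. By scaled CPM, CEBPB (53.7, 48.4 and 55.1) lay above CEBPA (45.7, 46.1 and 50.9) in mock replicates 1, 2 and 3. The ratio of CEBPB to CEBPD was 5.47, 5.44 and 5.44 in IFN-beta and 2.81, 2.65 and 2.92 in mock, so CEBPB outgrew the family member that also rose strongly, 1.95-fold by the mean log ratios. The ratio of CEBPB to CEBPG was 5.13-fold higher in IFN-beta, and that of SPI1 to CEBPA 1.54-fold higher. Each of these 4 ratios separated the groups fully, with a two-sided exact permutation p of 0.1, which is also the Benjamini-Hochberg adjusted value over the 4 and the smallest possible.

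SPI1, the gene of PU.1, rose and was the most abundant of the 7 genes in both groups. Its level was 554, 544 and 554 TPM in IFN-beta and 391, 373 and 382 TPM in mock. All IFN-beta libraries lay well above all mock libraries. The log2 fold change was 0.64 (approximate SE 0.03), or 1.56-fold with an approximate 95% interval of 1.49 to 1.63, and the edgeR adjusted p (Benjamini-Hochberg) was 7.7e-12. Under library size alone SPI1 had a log2 fold change of 0.55, and on log2(TPM + 1) 0.53, both below the interval's lower end (0.57 in log2). On the TPM scale its difference between the group means was second in size to that of CEBPB among the 7 genes.

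MAF was the only one of the 7 genes that fell. It had 2.84, 2.51 and 2.71 TPM in IFN-beta and 4.21, 3.73 and 4.14 TPM in mock, on 228 counts in all in IFN-beta and 329 in mock, and the groups did not overlap. The log2 fold change was -0.45 (approximate SE 0.12), which is 1.36-fold lower, with an edgeR adjusted p (Benjamini-Hochberg) of 0.00367. The call was lost with DESeq2, at an adjusted p of 0.0529 and an SE of 0.19, and in the authors' deposited table the adjusted p was 0.0645. The SD of the scaled counts, 0.188 CPM in IFN-beta and 0.439 CPM in mock, lay below what counting alone would give, 0.569 CPM in IFN-beta and 0.646 CPM in mock. MAF counts were not whole in any of the 6 libraries, so the deposited values for MAF are estimates rather than whole reads.

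CEBPZ had 74.8, 68.3 and 66.8 TPM in IFN-beta and 64.5, 64.3 and 56.8 TPM in mock. The groups stood side by side without overlap, with a gap smaller than the range within each. The log2 fold change was 0.29 (approximate SE 0.04), or 1.23-fold, with an edgeR adjusted p (Benjamini-Hochberg) of 1.5e-05. The size depended on the scaling. It was 0.201 under library size alone and 0.175 on log2(TPM + 1), both below the lower end of its approximate interval (0.208 in log2). Tested by limma on log2(TPM + 1) without a filter on low values, CEBPZ did not pass (adjusted p 0.0798).

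**Figure D3:**
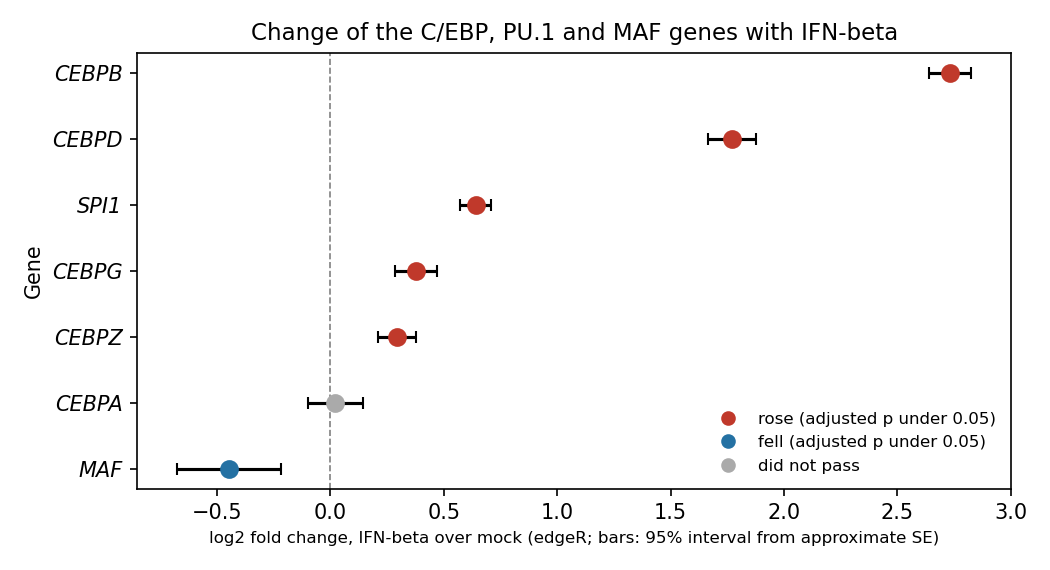
Log2 fold change of IFN-beta over mock for the 7 genes from the edgeR fit, with bars for the approximate 95% interval and colours for the call. CEBPB (2.73) and CEBPD (1.77) lie apart from SPI1, CEBPG and CEBPZ (0.64, 0.38 and 0.29), CEBPA spans 0 and MAF lies below it.

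Other bZIP factors with which C/EBP proteins can pair mostly rose. Of 13 tested, 8 rose, 1 fell and 4 did not pass, with a median log2 fold change of 0.49. Of the 13, 1 reached 10 counts in every library of IFN-beta only and was not called higher. Over all tested genes the median was 0.00, and 24.3% rose and 22.4% fell. Each list count here and below is to be read beside these shares. FOS, a subunit of AP-1, had 33.5, 35.9 and 34.3 TPM in IFN-beta and 10.8, 9.54 and 10.96 TPM in mock. Its log2 fold change was 1.84, and those of the related FOSL2 and JUN were 1.53 and 1.12. CREM, a factor of the cyclic AMP response, reached 109 ± 2.46 TPM in IFN-beta and 40.5 ± 2.84 TPM in mock (SD, n = 3 each). ATF3 and ATF4, stress-response partners picked after their values were seen, rose 2.65-fold and 1.16-fold, and ATF4 was abundant in both groups, with 614 ± 12.8 TPM in IFN-beta and 571 ± 7.78 TPM in mock. TEF, a factor of the circadian PAR class also picked after its values were seen, fell 1.28-fold. On log2(TPM + 1) the median was 0.32.

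Among relatives and partners of MAF, 4 of 8 tested genes rose, 3 fell and 1 did not pass. The median log2 fold change was 0.19, and -0.07 with no filter on low counts, where 9 were tested. The small MAF factors, which lack an activation domain and work as partners of others, did not move together. MAFF had 22.7, 24.5 and 21.4 TPM in IFN-beta and 6.16, 5.75 and 6.25 TPM in mock, a log2 fold change of 2.02. MAFK rose 1.52-fold, while MAFG, picked after its values were seen, fell 1.80-fold from a low level, with 2.16 ± 0.191 TPM in IFN-beta and 4.19 ± 0.424 TPM in mock (SD, n = 3 each). The CNC factors, which compete for these partners, also split. The repressor BACH1 rose 1.48-fold and NFE2L2, the activator NRF2, rose 1.38-fold, while NFE2L1 and BACH2, picked after their values were seen, fell with log2 fold changes of -0.24 and -0.88.

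Relatives and partners of PU.1 went both ways, with 5 of 10 tested genes that rose, 3 that fell and 2 that did not pass. The median log2 fold change was 0.12, 0.03 under library size alone and -0.03 with DESeq2, where 13 were tested. ETV6, an ETS-family repressor, rose 2.36-fold to 78.7 ± 0.789 TPM in IFN-beta, against 35.6 ± 1.37 TPM in mock (SD, n = 3 each). IKZF1, the Ikaros factor of blood cells, rose 1.42-fold. ID2, an inhibitor of helix-loop-helix factors, had 139, 148 and 147 TPM in IFN-beta and 291, 289 and 304 TPM in mock, which is a log2 fold change of -0.91. MYB, the progenitor factor whose chicken protein works with C/EBP beta, had 6.60, 4.73 and 4.88 TPM in IFN-beta and 15.1, 12.2 and 11.1 TPM in mock. Every IFN-beta library lay below every mock library, and the log2 fold change of MYB was -1.13. IRF8, which binds DNA with PU.1 and was picked after its values were seen, rose 1.20-fold, with 263 ± 2.07 TPM in IFN-beta and 238 ± 9.32 TPM in mock (SD, n = 3 each).

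Regulators of the C/EBP proteins were measured as RNA only, and the proteins themselves were not measured. Of 12 tested, 6 rose, 1 fell and 5 did not pass (median log2 fold change 0.12). Under library size alone 5 rose and 2 fell, with a median of 0.03. TRIB2, a pseudokinase that in mouse directs C/EBP alpha to degradation, had 51.9, 50.2 and 49.2 TPM in IFN-beta and 17.04, 17.4 and 15.97 TPM in mock, with a log2 fold change of 1.70. TRIB1, of the same family, rose 1.58-fold, and STAT3, a signal transducer downstream of cytokine receptors, rose 1.27-fold. The ribosomal S6 kinase gene RPS6KA1, listed as RPS6KA1L in the deposited tables, fell 1.37-fold.

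Inflammatory and acute phase genes known as targets of C/EBP beta included the largest changes. Of 17 tested, 10 rose, 3 fell and 4 did not pass, with a median log2 fold change of 1.47. Of these 17, CSF3, IL8L1, CCL4 and EXFABP reached 10 counts in every library of IFN-beta only, and CP in every library of mock only. These 5 genes came through the filter by the group where they were higher, so neither the counts nor the median describe the whole list. The median was 2.29 on log2(TPM + 1) with 15 tested and 0.90 without the filter with 19 tested. DESeq2 called 11 higher and 1 lower, and 1 fell without IFN-beta replicate 3 or without mock replicate 2. IL1B, an inflammatory cytokine, had 166, 180 and 172 TPM in IFN-beta and 5.83, 6.33 and 7.63 TPM in mock. ACOD1, the enzyme that makes itaconate, rose 31.9-fold, IL8L2, a chicken counterpart of interleukin 8, 35.1-fold, and SOCS3, a feedback inhibitor of cytokine signalling, 38.8-fold. These folds start from low mock levels, with 359 mock counts in all for ACOD1, 79 for IL8L2 and 55 for SOCS3. The gene listed as gene-HPS5 in the deposited tables was matched to the serum amyloid gene SAA only by gene ID, through the RefSeq table of GRCg7b. It was picked after its values were seen and rose 5.94-fold on 221 counts in IFN-beta and 39 in mock. Not all known targets moved this way. IL12B, also picked after its values were seen, had 1.88, 0.89 and 1.13 TPM in IFN-beta and 4.41, 3.43 and 3.59 TPM in mock, a log2 fold change of -1.34. IL6, picked in the same way, stood at 0.790 ± 0.139 TPM in IFN-beta and 0.720 ± 0.0436 TPM in mock and did not pass.

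The lineage genes that PU.1 and C/EBP factors are known to bind in myeloid cells went both ways. Of 28 tested, 10 rose, 10 fell and 8 did not pass, beside 24.3% of all tested genes that rose and 22.4% that fell. The median log2 fold change was -0.05, and -0.15 under library size alone. On log2(TPM + 1) 8 rose and 12 fell, and without IFN-beta replicate 1 or mock replicate 2 it was 10 and 7. MPEG1, a pore-forming protein of macrophages, rose 2.39-fold, PTPRC, the leukocyte phosphatase CD45, rose 2.01-fold, and CSF2RB, the shared chain of cytokine receptors, rose 3.62-fold. TLR2A, a receptor for bacterial lipoproteins, fell 1.36-fold. The growth factor receptors that are textbook targets of PU.1 and C/EBP alpha were picked after their values were seen. CSF3R, the receptor for granulocyte colony-stimulating factor, had 163, 166 and 157 TPM in IFN-beta and 215, 224 and 228 TPM in mock, and fell 1.27-fold. CSF1R, the receptor for macrophage colony-stimulating factor, had 246, 241 and 231 TPM in IFN-beta and 280, 289 and 258 TPM in mock, a log2 fold change of -0.09 with an edgeR adjusted p (Benjamini-Hochberg) of 0.0468. That call was lost without any single library except mock replicate 3 (adjusted p 0.0798 to 0.303) and with no filter on low counts (0.0751). The size depended on the scaling. CSF1R had a log2 fold change of -0.18 under library size alone (edgeR adjusted p 0.000303) and -0.20 on log2(TPM + 1) (limma adjusted p 0.003).

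Genes of differentiation and the cell cycle downstream of C/EBP alpha gave 4 of 9 tested that rose, 1 that fell and 4 that did not pass. Under library size alone 2 rose and 2 fell. The median log2 fold change was 0.17 and turned to -0.03 on log2(TPM + 1). Without IFN-beta replicate 2 or 3 only 2 rose, and without IFN-beta replicate 1 the median was 0.01. KLF4, a factor of monocyte differentiation, rose 2.66-fold and CDKN1A, the inhibitor p21 of cyclin-dependent kinases, rose 3.36-fold, while the related inhibitor CDKN1B fell 1.42-fold. E2F1, a cell cycle factor, rose 1.12-fold with overlapping TPM. It did not pass with DESeq2, under library size alone, in any of the 3 fits on TPM, or without IFN-beta replicate 2 or 3 or mock replicate 2.

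Macrophage genes that large MAF factors are known to control in mouse gave 5 of 12 tested that rose, 6 that fell and 1 that did not pass. The median log2 fold change was 0.10, -0.01 on log2(TPM + 1), and -0.11 with DESeq2, where 15 were tested. The 3 chains of complement C1q rose together. C1QB had 431, 447 and 476 TPM in IFN-beta and 265, 259 and 261 TPM in mock, a log2 fold change of 0.90, and those of C1QA and C1QC were 0.76 and 0.77. SLC40A1, the iron exporter, rose 1.59-fold. CD36 and MERTK, receptors for lipids and for dying cells that were picked after their values were seen, fell 2.28-fold and 1.17-fold.

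Genes of the amino acid response, which ATF4 controls with C/EBP gamma among its partners, gave 9 of 13 tested that rose, 1 that fell and 3 that did not pass. Only 6 rose in each of the 3 fits on TPM, and 8 with DESeq2 or under library size alone. Of the 13, 1 reached 10 counts in every library of IFN-beta only and was not called higher. The median log2 fold change was 0.41, and 0.24 on log2(TPM + 1) without a filter. MTHFD2, an enzyme of mitochondrial folate metabolism, reached 109 ± 4.80 TPM in IFN-beta and 67.1 ± 3.12 TPM in mock (SD, n = 3 each), VLDLR, a lipoprotein receptor, rose 1.78-fold, and SLC7A11, the cystine transporter, rose 2.24-fold on 477 counts in IFN-beta and 225 in mock. DDIT4, an inhibitor of mTOR signalling, fell 1.57-fold.

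The list set beside CEBPZ holds NOC proteins and other factors of ribosome assembly. Of 24 tested, 13 rose, 1 fell and 10 did not pass, with small changes throughout and a median log2 fold change of 0.10. Scaling by library size only gave 8 that rose, 6 that fell and a median of 0.01. The fit on log2(TPM + 1) gave 8 and 5 with a median of -0.01. NOP58, a protein of small nucleolar particles, rose 1.23-fold, DDX18, a nucleolar helicase, 1.20-fold, and BRIX1 and RRP1B, factors of ribosomal subunit assembly, 1.19-fold and 1.21-fold. The NOC proteins were picked after their values were seen. NOC3L rose 1.21-fold, NOC2L rose 1.09-fold but did not pass under library size alone or in the fits on TPM, and NOC4L did not pass at 35.9 ± 1.99 TPM in IFN-beta and 40.8 ± 0.722 TPM in mock. NOC4L was called lower under library size alone and in the 3 fits on TPM.

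**Figure D4:**
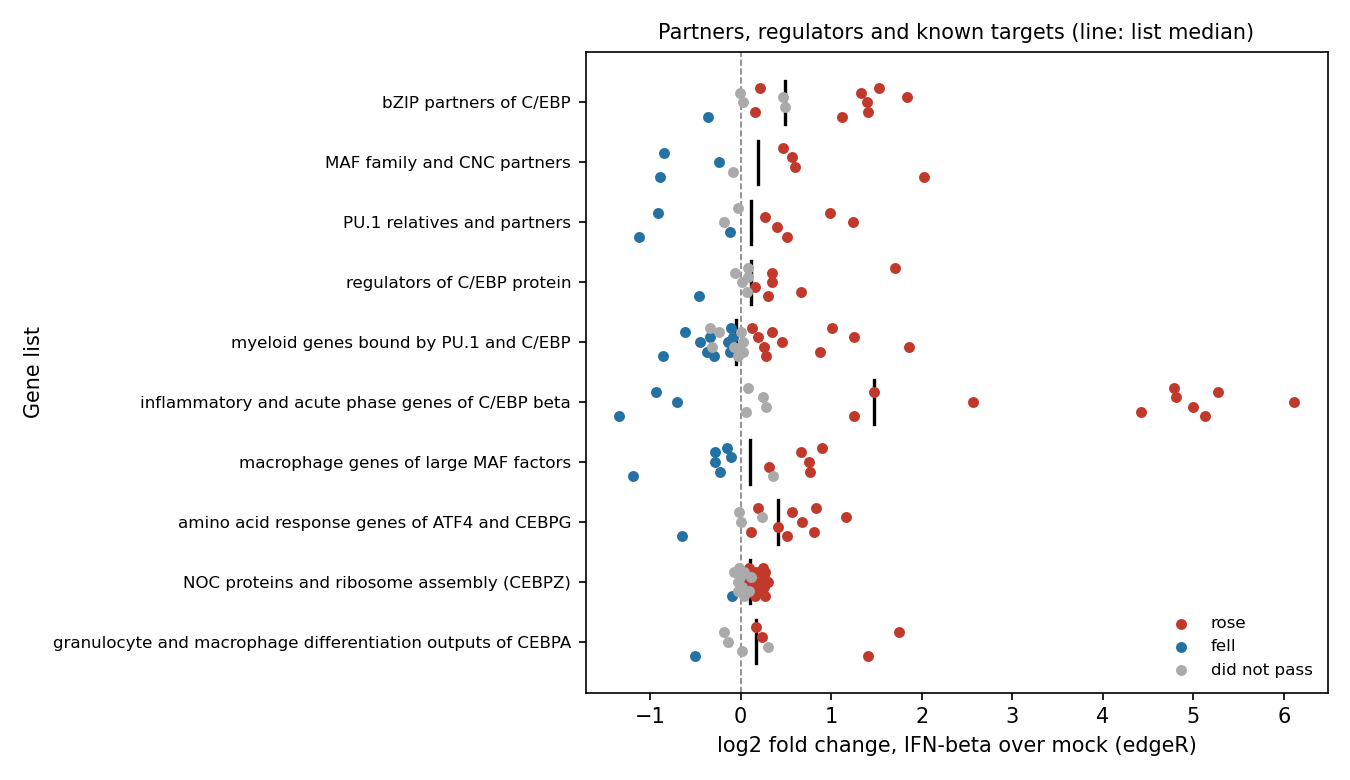
Log2 fold change of IFN-beta over mock (edgeR) for the tested genes of 10 lists of partners, regulators and known targets, 1 point per gene, coloured by call, with a line at each list's median. The list of inflammatory and acute phase genes reaches furthest to the right (median 1.47). Of its 17 tested genes, 4 came through the filter on low counts by IFN-beta only and 1 by mock only. That median therefore does not describe the whole list, and it was 1.26 with no filter, where 19 were tested. The lineage genes spread to both sides of 0 (median -0.05), and the ribosome assembly genes lie close together.

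Protein-coding genes next to the 7 genes in the reference assembly were read to see what lay around them. Of 12 such neighbours that are not themselves C/EBP genes, 6 rose, 1 fell and 5 did not pass. Among all tested genes 24.3% rose and 22.4% fell. Both neighbours of CEBPB on chromosome 20 rose. PTPN1, a phosphatase of JAK signalling, had 92.9 ± 1.92 TPM in IFN-beta and 62.2 ± 3.12 TPM in mock, and TMEM189 had 174 ± 1.45 TPM in IFN-beta and 112 ± 2.49 TPM in mock (SD, n = 3 each), with log2 fold changes of 0.69 and 0.74. Both neighbours of SPI1 on chromosome 5 rose as well, SLC39A13, a zinc transporter, with a log2 fold change of 0.50, and MYBPC3, a muscle gene, with 1.05 at 1.54 ± 0.220 TPM in IFN-beta and 0.803 ± 0.152 TPM in mock. The strand setting of the counting is not given in the sources used here, so reads running into a neighbour cannot be told apart from its own. Beside CEBPD on chromosome 2, LOC421106 rose (log2 fold change 0.21) and PRKDC, the DNA-dependent protein kinase, fell (-0.25). SLC7A10, an amino acid transporter gene next to CEBPA, rose (0.30). The calls of LOC421106 and SLC7A10 were lost in the 3 fits on TPM, and that of LOC421106 also under library size alone.

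For each gene that passed, the genes nearest in profile were taken as those with the smallest root mean square difference in centred log2 CPM over the 6 libraries. Since the 6 libraries form 2 groups, this mostly finds genes with a change of like size. Nearest to CEBPB were PMLL (0.0476), RAB20, a GTPase of vesicle traffic (0.0681), and RGCCL (0.0720). Nearest to CEBPD were PIK3R5, a regulatory subunit of PI3K-gamma (0.0525), TRIB2 (0.0606) and LIPG, the endothelial lipase (0.0612). SC5D, an enzyme of cholesterol synthesis (0.0170), ENTPD2L (0.0184) and USP16, a deubiquitinase (0.0275), were nearest to SPI1. Around MAF lay IFT81, a protein of transport in cilia (0.0282), SLC25A47 (0.0293) and AMN1 (0.0295), which were lower in IFN-beta by log2 fold changes of -0.42, -0.48 and -0.50. The nearest genes of CEBPG were GNL2, SH3GLB1 and PPP2R2D (0.0207 to 0.0226), and those of CEBPZ included DMXL1 (0.0127) and ZHX2 (0.0254), which did not pass in the fits on TPM.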

How the data were processed

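The 3 IFN-beta and 3 mock libraries were grouped by sample title. The authors deposited expected counts, with fractions in 2322 genes, TPM values normalised for length and depth, and, per the file headers, their own log2 fold changes with p-values and adjusted p-values. GRCg6a was the build and DESeq2 was among the tools, per the submitters' processing notes. Not given in the sources used here: aligner, counting tool, annotation, strand setting.

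The design had assumed whole counts, so the expected counts were rounded first. After rounding, edgeR 4.0.16 (R 4.3.3) gave the tests (filterByExpr defaults, 11091 genes kept, 3812 not tested, TMM factors 0.963 to 0.973 in IFN-beta and 1.03 to 1.04 in mock, glmQLFit and glmQLFTest with group as the only term, Benjamini-Hochberg over all tested genes, threshold 0.05). The pipeline was checked on simulated data with few changed genes, as many up as down. That check cannot speak to calls that depend on the scaling. The approximate SE was taken from the log2 fold change and its F value (their ratio, with F under a root). Intervals are 1.96 of that SE to each side and leave out the choice of scaling. Pairs within a group had chi-square values 1.67 to 4.48 times the degrees of freedom, so no library was a copy of another. The edgeR p-values weigh the difference between the groups against the estimated spread between these libraries. Groups of 3 allow an exact permutation p of 0.1 at best.

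The 7 genes and the 10 gene lists and 6 marker lists were chosen with earlier results of these data known. The lists were not tested as sets. A few genes are not reported here. Of 243 entries, 187 were found by deposited symbol, 4 by the symbol of the RefSeq table of GRCg7b, 2 named a gene already in the list and 50 were not matched. From each list up to 4 called genes with the smallest adjusted p are named, and others are said to be picked after their values were seen. Profile neighbours needed a mean of at least 5 CPM, and a prior of 0.5 was added to CPM before log2. Alternatives were DESeq2 1.42.0, its size factors in edgeR, library size alone, no low-count filter, a replicate block, limma 3.58.1 on TPM (pseudocount 1 or 0.1, genes averaging 1 TPM or more, and once with pseudocount 1 on all genes), CPM in place of TPM, and leaving out each library.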

Additional observations from a re-analysis of the deposited data

How the results depend on the processing

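The directions and calls of CEBPB, CEBPD, CEBPG and SPI1 were the same under all alternatives run. Their sizes were not, and on log2(TPM + 1) each log2 fold change lay below the lower end of its approximate interval. The MAF log2 fold change was -0.45 with DESeq2 and no longer passed (adjusted p 0.0529), and that of CEBPZ on log2(TPM + 1) without a filter was 0.18 and did not pass. CEBPA, which never passed, turned to -0.0714 under library size alone, to -0.0915 on log2(TPM + 1) with or without the filter and to -0.0924 on log2(TPM + 0.1), and ranged from -0.0316 to 0.0788 on leaving out each library in turn. The median of the tested genes lay at -0.09 under library size alone and at -0.10 on log2(TPM + 1) and -0.11 on log2(TPM + 0.1). Genes called higher and lower were 1734 and 4008 under library size alone, 1376 and 3823 on log2(TPM + 1), and 1377 and 3815 on log2(TPM + 0.1), and 1395 were called higher on log2(TPM + 1) without a filter. With scaled CPM in place of TPM, which ignores length, the share of the C/EBP sum was lower in IFN-beta by -16.5 percentage points for CEBPA (-27.7 by TPM) and -19.6 for CEBPG (-10.2), and higher by 34.2 for CEBPB (36.4) and 1.88 for CEBPD (1.54). With the replicate number as a replicate block, 3077 genes were called higher and 2792 lower, and no call of the 7 genes changed. Same-numbered libraries had correlations of their deviations of 0.103, 0.079 and 0.0993, not all over 0.1, and each library correlated best with its own number, a hint from the data and not from the design. Of 448 recomputed list counts, 405 were within 1.5 times the reported one and 43 were not. Depth limits MAF most, with 228 counts in IFN-beta and 329 in mock.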
